A study of Homo sapiens with 48 samples.

Results

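RPMI is an established cell line of multiple myeloma, a tumour of the antibody-secreting plasma cell. It was treated with carfilzomib, an irreversible inhibitor of the proteasome used in the treatment of myeloma, and compared with the same line given the solvent DMSO. The comparison takes 6 of the 48 RNA-seq libraries of the series, 3 with carfilzomib and 3 with DMSO, chosen by the line and the treatment in their labels, and describes them across all genes. Treatment lasted 24 h at the IC50 for proteasome activity, a concentration whose value in this line is not in the labels used here. The labels give no genotype and no second agent, and call the samples biological triplicates without saying whether cultures were treated on separate days, so p-values measure only the spread between these samples. The other 42 libraries come from 7 lines under the same pair of treatments, namely H-929 (multiple myeloma), RKO and DLD-1 (colon), H-23 and H-1299 (lung), and PANC-1 and CAPAN-2 (pancreas). RPMI stands for 1 tumour grown in culture, and the title of the series places the study in the question of how HSP70 chaperones drive the response to proteasome inhibition.

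The proteasome is a barrel of proteolytic subunits, the 20S core, capped by the 19S particle that recognises and unfolds proteins tagged with ubiquitin. When it is blocked, unfolded proteins accumulate, heat shock factors are released to switch on chaperone genes, the kinases of the integrated stress response favour translation of the transcription factor ATF4, and the transcription factors NFE2L1 and NRF2 escape degradation and act on proteasome and antioxidant genes. Plasma cells secrete large amounts of antibody and carry a high load of folding and degradation, which is why myeloma is a main use of these inhibitors.

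The promoter sequences of a few of the genes that rose are shown because they hold the short elements by which such factors are known to act. They are from RefSeq (GRCh38.p14, window of 250 bases before to 50 after each start), 5′ to 3′ on the strand of the gene, and the capitals mark the matched letters. The heat shock element was searched as GAANNTTC or TTCNNGAA, which together cover both strands.
HSPA1A: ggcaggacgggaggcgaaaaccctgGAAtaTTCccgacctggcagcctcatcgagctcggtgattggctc
HSPA6: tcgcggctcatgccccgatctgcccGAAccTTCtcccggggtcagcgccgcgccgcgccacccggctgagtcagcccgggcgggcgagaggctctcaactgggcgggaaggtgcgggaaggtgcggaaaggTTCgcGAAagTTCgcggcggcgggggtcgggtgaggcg
DNAJB1: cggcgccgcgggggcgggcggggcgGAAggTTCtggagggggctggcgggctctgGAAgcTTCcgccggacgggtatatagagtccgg
These stretches lie at chr6:31815412-31815481 on the plus strand, chr1:161524335-161524503 on the plus strand and chr19:14518412-14518499 on the minus strand. In the HSPA6 promoter the last 2 of 3 matches overlap and form 1 longer element of 3 units. A gene was counted if any of its RefSeq promoters held a match. Of the 10732 genes tested that had a RefSeq promoter, 12.1% held a match. The share was 15.6% of the 1049 that rose by at least 2-fold. It was 16 of 42 (38.1%) genes of the HSP70, HSP40, HSP90, BAG and small heat shock protein lists. Counted by promoter and not by gene, 11.6% of all 35116 in the RefSeq table held a match.

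The element bound by ATF4 with CHOP (DDIT3) was searched as TGATGNAA or TTNCATCA and the endoplasmic reticulum stress element, read by ATF6 and XBP1, as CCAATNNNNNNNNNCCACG on both strands. The interferon-stimulated element was searched as GAAANNGAAA or TTTCNNTTTC, a search added after the interferon genes had been seen to rise.
CHAC1: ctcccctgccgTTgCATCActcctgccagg
ASNS: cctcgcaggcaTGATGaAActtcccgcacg
HSPA5: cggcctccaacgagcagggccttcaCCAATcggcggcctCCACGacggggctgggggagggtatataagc
IFIT3: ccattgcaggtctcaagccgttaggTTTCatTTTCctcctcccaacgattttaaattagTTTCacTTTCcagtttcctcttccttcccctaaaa
IFI44L: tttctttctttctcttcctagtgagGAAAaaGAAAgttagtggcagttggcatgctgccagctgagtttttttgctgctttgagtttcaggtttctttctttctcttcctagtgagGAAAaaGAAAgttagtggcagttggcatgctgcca
The stretches lie at chr15:40953251-40953280 (plus), chr7:97872458-97872487 (minus), chr9:125241365-125241434 (minus), chr10:89327816-89327909 (plus) and chr1:78620259-78620409 (plus). In ASNS the match overlaps a heat shock match that is not capitalised. Counted by gene as above, the ATF4-CHOP letters were in 2.44% of genes tested and in 5 of 20 ATF4 and CHOP targets. The endoplasmic reticulum stress letters were in 0.149% and in 8 of 26 genes of the unfolded protein response list. The interferon letters were in 3.48% and in 10 of 14 genes of the interferon list. The antioxidant element, searched as TGACNNNGC on both strands, was in 16.2% and in 4 of 14 genes of the NRF2 list. Genes with a match did not always rise (called as below). In the unfolded protein response list 4 of 8 with a match rose and 2 fell, against 12 and 4 of 18 without. In the heat shock lists 14 of 16 with a match rose and 0 fell, against 13 and 5 of 26 without. In the ATF4 and CHOP list 4 of 5 with a match rose, against 14 of 15 without, and none fell. In the NRF2 list 4 of 4 with a match rose, against 8 of 10 without, where 2 fell. In the interferon list 8 of 10 with a match rose and 1 fell, against 3 and 1 of 4 without. The counts of matches by list include genes with several rows, such as HSPA1A, HSPA1B and B2M, that the lists below leave out as uncertain. Among genes that rose by at least 2-fold the letters were in 4.10% (ATF4-CHOP), 0.286% (endoplasmic reticulum stress), 6.29% (interferon) and 19.6% (antioxidant). A match is a description of the sequence and not a measured binding site.

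The 6 libraries held 17.6 to 36.6 M counts with DMSO and 18.1 to 22 M with carfilzomib, within 9.12 to 64.4 M over the series. Values below are CPM, a gene's count per 1e6 counts of the library after scaling by the TMM factors of edgeR, given for replicates 1, 2 and 3 in that order. The 10 rows with the most counts took 7.16% to 7.81% of a DMSO library and 11.5% to 11.9% of a carfilzomib library. Plasma cell markers summed to 7582 to 8960 CPM with DMSO, with 18 of 23 measured markers above 1 CPM on average, while B cell markers summed to 16.4 to 21 CPM with CD24 at 0, T and NK cell markers to 3.14 to 4.50 CPM with CD3D and CD2 at 0, and erythroid markers to 0.930 to 1.19 CPM with HBB and AHSP at 0. Nearly all of the B cell sum was MS4A1 (9.88, 9.45 and 7.84 CPM) and FCER2 (9.76, 11.3 and 8.36 CPM). Most of the T and NK cell sum was CD8A (2.09, 3.01 and 3.04 CPM). The immunoglobulin constant genes were not analysed here. Markers of myeloid cells went from 2.34 to 3.20 CPM with DMSO to 5.03 to 6.46 CPM with carfilzomib (S100A8 at 0). Most of that rise was S100A9, at 0.174, 0.0708 and 0.407 CPM with DMSO and 2.64, 2.95 and 2.89 CPM with carfilzomib. Markers of fibroblasts went from 0.988 to 1.49 CPM to 2.86 to 4.27 CPM (DCN at 0). Most of that was COL1A1, at 0.813, 0.849 and 1.19 CPM and then 2.70, 3.70 and 4.10 CPM. These are sums of a few CPM whose part in the results was not tested. Epithelial markers lay between 199.5 and 209 CPM with DMSO and between 188 and 219 CPM with carfilzomib, a sum made up mostly of EPCAM and KRT18. EPCAM went from 105, 105 and 104 CPM to 64.5, 70.3 and 60.1 CPM. KRT18 went from 96.15, 88.0 and 89.2 CPM to 137, 141 and 122 CPM. Of the 5 epithelial markers tested 2 were called higher and 2 lower by edgeR, or 1 lower without carfilzomib replicate 1.

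Carfilzomib changed a large share of the transcriptome in RPMI. Of 14995 genes tested, 4693 rose (31.3%) and 4821 fell (32.2%) at an adjusted p under 0.05, the threshold behind every call below, by edgeR's quasi-likelihood F test with Benjamini-Hochberg adjustment over all genes tested. The change was at least 2-fold in 1624 genes that rose (10.8%) and 1341 that fell (8.94%), and at least 8-fold in 221 and 76. The other 5481 genes were not called, and the median log2 fold change over all genes tested was 0.0068. An SE given below was worked back from the F statistic and is approximate. The 3 libraries of each treatment lay wholly above or below the 3 of the other in 5101 genes that were higher and 5127 that were lower with carfilzomib. The lists described below were drawn up with earlier results of these data known, and their counts are read against the 31.3% and 32.2% over all genes.

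**Figure D1:**
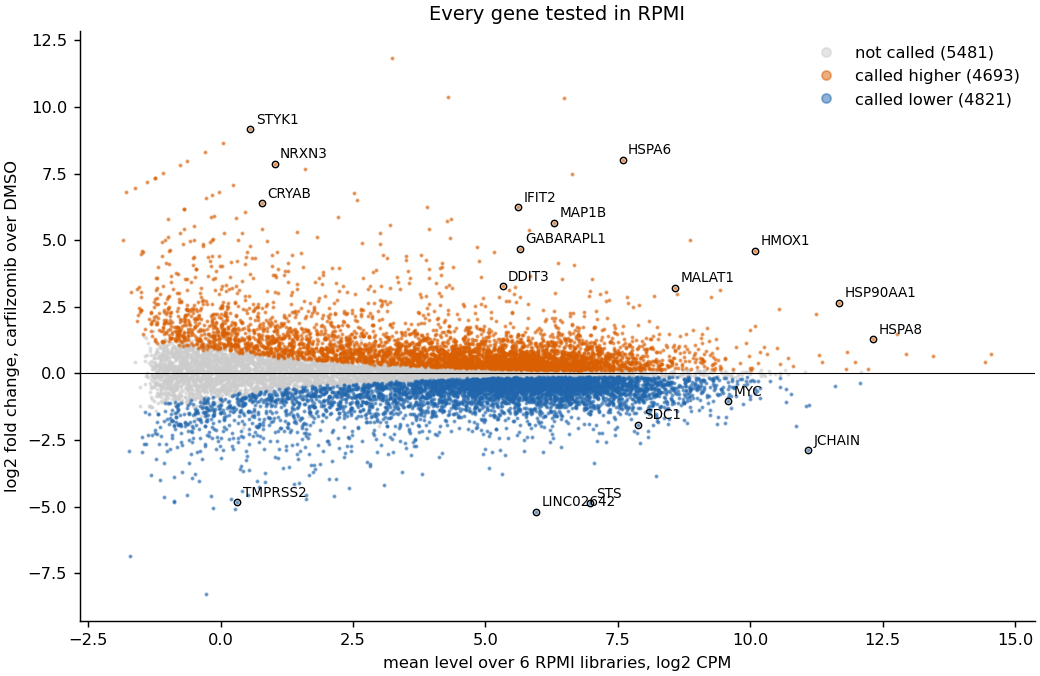
Each point is 1 gene tested in RPMI, with the mean level over the 6 libraries in log2 CPM across and the log2 fold change of carfilzomib against DMSO upward; colours mark genes called higher (4693), called lower (4821) and not called (5481) at an adjusted p under 0.05, and named genes are labelled. The rises reach larger fold changes than the falls, with 221 genes up and 76 down by at least 8-fold.

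Stress-inducible HSP70 genes rose from low levels. HSP70 proteins bind unfolded stretches of other proteins, HSP40 proteins deliver those clients, and HSP110 proteins exchange the nucleotide that releases them. HSPA1A and HSPA1B, the near-identical stress-inducible HSP70 genes whose 8 rows were summed, stood at 1.16, 3.36 and 2.17 CPM with DMSO and 410.5, 543 and 569 CPM with carfilzomib. All 3 carfilzomib libraries lay far above all 3 DMSO libraries, a log2 fold change of 7.75 (SE 0.19, n = 3 per group, 215-fold, adjusted p = 3.5e-12 by edgeR). HSPA6, a strictly inducible HSP70 gene (chr1:161524540-161526910, GRCh38), had 1.34, 1.24 and 1.74 CPM with DMSO and 263, 361 and 529 CPM with carfilzomib. Its groups did not overlap either, the third carfilzomib library being the highest, and the log2 fold change was 8.02 (SE 0.28, 259.8-fold, adjusted p = 5.67e-11).

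HSPA8, the HSP70 present in unstressed cells, went from 2817, 2938 and 3132 CPM to 6487, 7820.2 and 7478 CPM, with no overlap and a log2 fold change of 1.29 (SE 0.07, adjusted p = 1.81e-09). HSPH1, an HSP110 protein, had 273, 260.2 and 282 CPM with DMSO and 720.1, 927 and 1011 CPM with carfilzomib, a log2 fold change of 1.71 (SE 0.10) with the groups apart. Of the 8 HSP70 and HSP110 genes tested as single rows, 6 rose, 5 of them by at least 2-fold, and none fell. HSPA2, best known from testis, rose by 3.09 (SE 0.22). HSPA4 (0.14) and HSPA14 (0.11) were not called, HSPA4 being called without carfilzomib replicate 1 (0.21), and the median of the list was 1.15 against 0.0068 over all genes. HSPA1L, which shares its identifier over several rows, was left out beside HSPA1A and HSPA1B.

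Among HSP40 co-chaperones, DNAJB1, the partner of HSP70 in protein disaggregation, had 143, 148 and 149 CPM with DMSO. With carfilzomib it had 874, 1121 and 1254 CPM. The groups were far apart, with a log2 fold change of 2.88 (SE 0.10, 7.37-fold, adjusted p = 7.1e-11). DNAJB2, whose product carries ubiquitin-interacting motifs, rose by 2.32 on the log2 scale and DNAJB4 by 1.14. In all, 7 of 12 HSP40 genes rose, 3 by at least 2-fold, none fell, and the median was 0.52. DNAJA2 (-0.08) was the lowest and was not called.

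**Figure D2:**
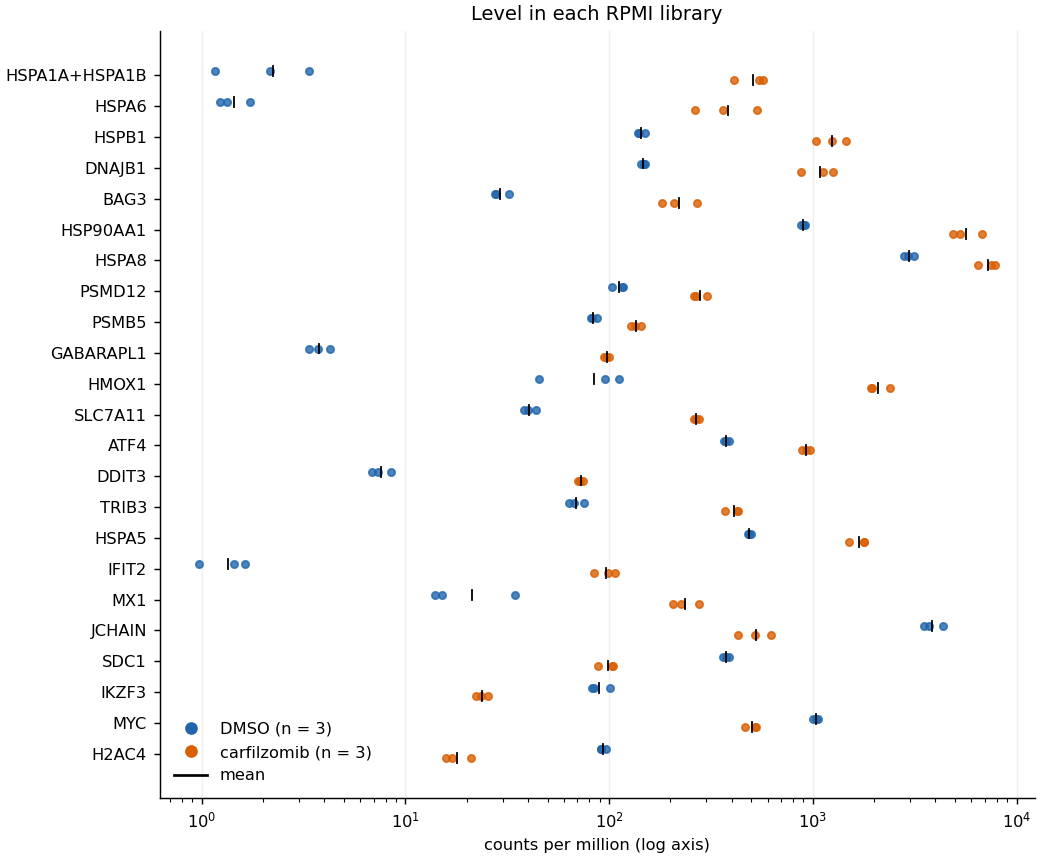
Level in CPM on a log axis for named genes of the stress responses and of the plasma cell in the 3 DMSO and the 3 carfilzomib libraries of RPMI; each point is 1 library and each short line is the mean of 3. HSPA6 sits between 1.24 and 1.74 CPM with DMSO and between 263 and 529 CPM with carfilzomib, while JCHAIN falls from between 3506 and 4331 to between 430.1 and 622 CPM.

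HSP90 completes the folding of kinases and receptors handed over by HSP70. HSP90AA1, its inducible form, had 904, 870.4 and 915 CPM with DMSO and 4892, 5293 and 6757 CPM with carfilzomib. The groups did not overlap, and the log2 fold change of 2.66 (SE 0.10) stood beside 0.81 (SE 0.05) for HSP90AB1, the constitutive form. Of 13 genes in the list 8 rose and 3 fell, with a median of 0.25. The genes that fell were FKBP5 (-0.97) and FKBP4 (-0.59), co-chaperones of steroid hormone receptors, and TRAP1 (-0.70), the mitochondrial HSP90.

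The small heat shock proteins, which hold unfolded proteins in a soluble state, and BAG3, which links HSP70 to autophagy, rose as a smaller group within their list. HSPB1 had 149.8, 139 and 140.2 CPM with DMSO and 1033, 1237 and 1447 CPM with carfilzomib, with all carfilzomib libraries higher and a log2 fold change of 3.12 (SE 0.10, adjusted p = 2.84e-11). HSPB8, the partner of BAG3, had 1.92, 2.02 and 2.20 CPM and 46.5, 51.0 and 68.5 CPM, again without overlap, a log2 fold change of 4.74 (SE 0.16). BAG3 rose by 2.90 (SE 0.12) on the same scale. CRYAB (alpha-B crystallin) was counted 0, 0 and 3 times with DMSO and 54, 94 and 65 times with carfilzomib. The pooled ratio of its CPM was 94.3 (exact 95% interval 31.8 to 461, counting error only). In the list as a whole 5 of 10 rose and 3 fell (BAG1, BAG4 and BAG5, by 0.14 to 0.47 on the log2 scale). The call for BAG5 was lost without any 1 library other than carfilzomib replicate 3 (-0.16 to -0.11).

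Chaperonins are closed chambers that fold actin, tubulin and mitochondrial proteins. Of 10 subunits HSPD1 rose (0.71, SE 0.06), 5 fell and the median was -0.13. HSPE1, which forms the lid of the HSPD1 chamber, fell by 0.39 (SE 0.06). Of 3 heat shock factor genes tested, HSF2 (0.96) and HSF4 (0.83) rose, and HSBP1, an inhibitor of heat shock factors, fell (-0.73). HSF1, the main heat shock factor, is spread over several rows and was not assessed.

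Subunits of the drug's own target rose together. Of 18 genes of the 19S cap tested, 18 rose, 7 of them by at least 2-fold, with a median log2 fold change of 0.96. Of 13 genes of the 20S core 12 rose and none fell, with a median of 0.73, and PSMA3 (0.00) was not called. PSMC6, an ATPase of the cap, had 68.6, 72.6 and 74.5 CPM with DMSO and 224, 232 and 217 CPM with carfilzomib, which gave a log2 fold change of 1.64 (SE 0.05, adjusted p = 3.64e-11). PSMB5, the subunit that carries the chymotrypsin-like site bound by carfilzomib, had 87.3, 81.6 and 82.1 CPM and 143, 134 and 128 CPM. In both genes every carfilzomib library lay above every DMSO library, and PSMB5 changed by 0.69 (SE 0.06). PSMB3 and PSMC4 have several rows and were not assessed.

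Factors that build and activate the proteasome moved both ways. Of 12 assembly factors and activators 4 rose and 6 fell, with a median of -0.08. PSME4, an alternative activator of the core, rose by 1.0 and POMP, which matures the core, by 0.58. All of PSMG1 to PSMG4, the chaperones that assemble the alpha ring, fell, by 0.25 to 0.77. The call for PSMD5 (-0.14) was lost without any 1 library other than DMSO replicate 2. That for PSME3 (-0.17) was lost without DMSO replicate 3 or carfilzomib replicate 2, and that for PAAF1 (0.21) without DMSO replicate 2. PSMB10, an immunoproteasome subunit, fell by 0.35 (SE 0.05), while the other 4 immunoproteasome genes of the list have several rows.

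NFE2L1, the factor that drives proteasome genes when degradation is blocked, had 159, 154 and 155 CPM with DMSO and 422, 432 and 392 CPM with carfilzomib. The groups were apart, with a log2 fold change of 1.41 (SE 0.05). Its small MAF partners MAFF (1.69) and MAFG (1.23) rose and MAFK (-0.30) fell. VCP (0.95), NPLOC4 (1.5) and UFD1 (1.01), the complex that pulls proteins out of the endoplasmic reticulum, rose, whereas DDI2 (-0.89), the protease that activates NFE2L1, fell. In the list 9 of 12 rose and 3 fell.

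UBB, a polyubiquitin gene, had 429.8, 401 and 408 CPM with DMSO and 662, 741 and 799.9 CPM with carfilzomib. All carfilzomib libraries were higher, by 0.83 (SE 0.07) on the log2 scale. RPS27A, which encodes ubiquitin fused to a ribosomal protein, fell (-0.30). UCHL1, a deubiquitinase, rose by 3.10 (SE 0.31). ZFAND2A, a heat-inducible proteasome-associated protein, rose by 3.55 (SE 0.11) and USP14, a deubiquitinase of the cap, by 1.30. STUB1 (-0.88), the ubiquitin ligase that works with HSP70, and UBA1 (-0.58), the main ubiquitin-activating enzyme, fell. In the list 10 of 16 rose and 4 fell, with a median of 0.49.

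Autophagy, in which ATG8 proteins coat a membrane that encloses cargo for the lysosome, is the other route of protein disposal. GABARAPL1, an ATG8 gene (chr12:10212458-10223130, GRCh38), had 3.72, 4.28 and 3.36 CPM with DMSO and 99.98, 94.9 and 96.9 CPM with carfilzomib. The groups were far apart, with a log2 fold change of 4.69 (SE 0.09, 25.8-fold, adjusted p = 3.59e-13). MAP1LC3B had 18.7, 12.7 and 13.8 CPM and 70.01, 49.8 and 55.7 CPM, a log2 fold change of 1.98 (SE 0.14) without overlap. The family split, since GABARAP (-0.49) and GABARAPL2 (-0.26) fell.

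Of 27 core and receptor genes of autophagy 18 rose and 7 fell, and the median was 0.35. The receptors CALCOCO2 (1.71), TAX1BP1 (1.24), OPTN (0.73) and NBR1 (0.41) rose. So did ULK1 (0.98) and RB1CC1 (1.0) of the initiating kinase complex, while ULK2 (-0.57) fell, a call lost without DMSO replicate 1 (-0.55) or DMSO replicate 3 (-0.57). SQSTM1, the receptor p62, has several rows, and the 1 tested under that symbol was at 0.349, 0.779 and 0.353 CPM with DMSO and 6.78, 5.71 and 8.90 CPM with carfilzomib, a value left uncertain. Lysosomal genes moved both ways, 11 of 25 up and 11 down, from 1.47 for the protease CTSD to -1.03 for CTSA.

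NRF2 targets, which detoxify oxidants, rose in 15 of 19 genes and fell in 3, 7 of the rises being at least 2-fold, and the median was 0.54. HMOX1, heme oxygenase (chr22:35380361-35394214, GRCh38), had 45.1, 95.8 and 112 CPM with DMSO and 1944, 2399 and 1935 CPM with carfilzomib. The first DMSO library was the lowest of its group, the groups did not overlap, and the log2 fold change was 4.62 (SE 0.24, 24.5-fold, adjusted p = 1.95e-09). OSGIN1 rose by 3.70 (SE 0.15) and AKR1C1, an aldo-keto reductase, by 4.57 (SE 0.18). GCLM, a subunit of the enzyme that starts glutathione synthesis, rose by 1.58 (SE 0.08), against 0.25 for its catalytic partner GCLC. NQO1, a widely used NRF2 target, rose by 0.29. The genes that fell were TXN (-0.60), TKT (-0.55) and PRDX1 (-0.52).

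Heme and iron genes moved beside HMOX1. FTL, the ferritin light chain that stores iron, had 3660.3, 3863 and 3611 CPM with DMSO and 10247, 10553 and 9912 CPM with carfilzomib, a log2 fold change of 1.46 (SE 0.05). FTH1, the heavy chain, rose by 1.5 and BLVRB, which reduces biliverdin, by 1.76. TFRC, the receptor that imports transferrin-bound iron, had 1012, 1044 and 1108 CPM and 246, 286 and 309 CPM. All of its carfilzomib libraries were lower, with a log2 fold change of -1.91 (SE 0.08), and SLC40A1, the iron exporter, fell as well (-0.88).

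ATF4 and CHOP targets formed the list with the highest share of large rises among those with over 20 genes tested. Of 24 genes 22 rose, 18 by at least 2-fold, none fell, and the median was 1.54. ATF4 itself had 389.7, 373 and 366 CPM with DMSO and 926, 969 and 888 CPM with carfilzomib, with no overlap and a log2 fold change of 1.30 (SE 0.05, adjusted p = 2.04e-10). DDIT3, which encodes the death-promoting factor CHOP, had 8.54, 6.90 and 7.33 CPM and 70.8, 72.3 and 74.8 CPM, a log2 fold change of 3.28 (SE 0.08). CHAC1, which degrades glutathione, had 3.83, 1.56 and 1.22 CPM, with the first DMSO library the highest, and 20.6, 21.8 and 22.1 CPM with carfilzomib. In both genes the groups did not overlap, and CHAC1 rose by 3.41 (SE 0.28, adjusted p = 1.57e-07). NUPR1, a stress-induced chromatin protein, had the largest rise of the list, 4.10 (SE 0.43).

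Other factors of the pathway moved alike, with ATF3 at 3.05 (SE 0.06), CEBPB at 2.86 and TRIB3, a pseudokinase that restrains ATF4, at 2.58 (SE 0.08). PPP1R15A, which restores translation after stress, rose by 3.01. SLC7A11, the cystine importer, had 39.9, 43.6 and 38.3 CPM with DMSO and 262, 275 and 267 CPM with carfilzomib, all 3 higher, by 2.72 (SE 0.06). ASNS, which makes asparagine, rose by 2.53 (SE 0.19) and PHGDH, PSAT1 and PSPH of serine synthesis by 1.96, 1.27 and 0.87. SLC7A5 (-0.06) and JDP2 (0.16) were not called. Aminoacyl-tRNA synthetases, which charge tRNAs and of which several are ATF4 targets, divided, 10 of 18 rising and 7 falling, from 1.22 for GARS1 to -0.72 for RARS1.

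The unfolded protein response of the endoplasmic reticulum restores folding in the secretory pathway through the sensors IRE1 (ERN1), PERK (EIF2AK3) and ATF6. HSPA5 (BiP), its HSP70 chaperone, had 481, 485 and 498 CPM with DMSO and 1788, 1505 and 1778 CPM with carfilzomib. The groups were apart and the log2 fold change was 1.79 (SE 0.07, adjusted p = 8.74e-11). Genes of degradation from the endoplasmic reticulum rose, namely HERPUD1 (1.32, SE 0.05), SYVN1 (1.08) and SEL1L (1.01). The sensors rose too, by 1.02 for ERN1, 0.32 for EIF2AK3 and 0.29 for ATF6. XBP1, the factor that IRE1 activates by splicing its mRNA and that plasma cells need, fell, from 736, 622 and 608 CPM to 477, 475 and 423 CPM (-0.51, SE 0.07). The disulfide isomerases PDIA6 (-0.60), P4HB (-0.38) and PDIA4 (-0.20) also fell, so that 16 of 27 genes rose and 6 fell, with a median of 0.32.

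**Figure D3:**
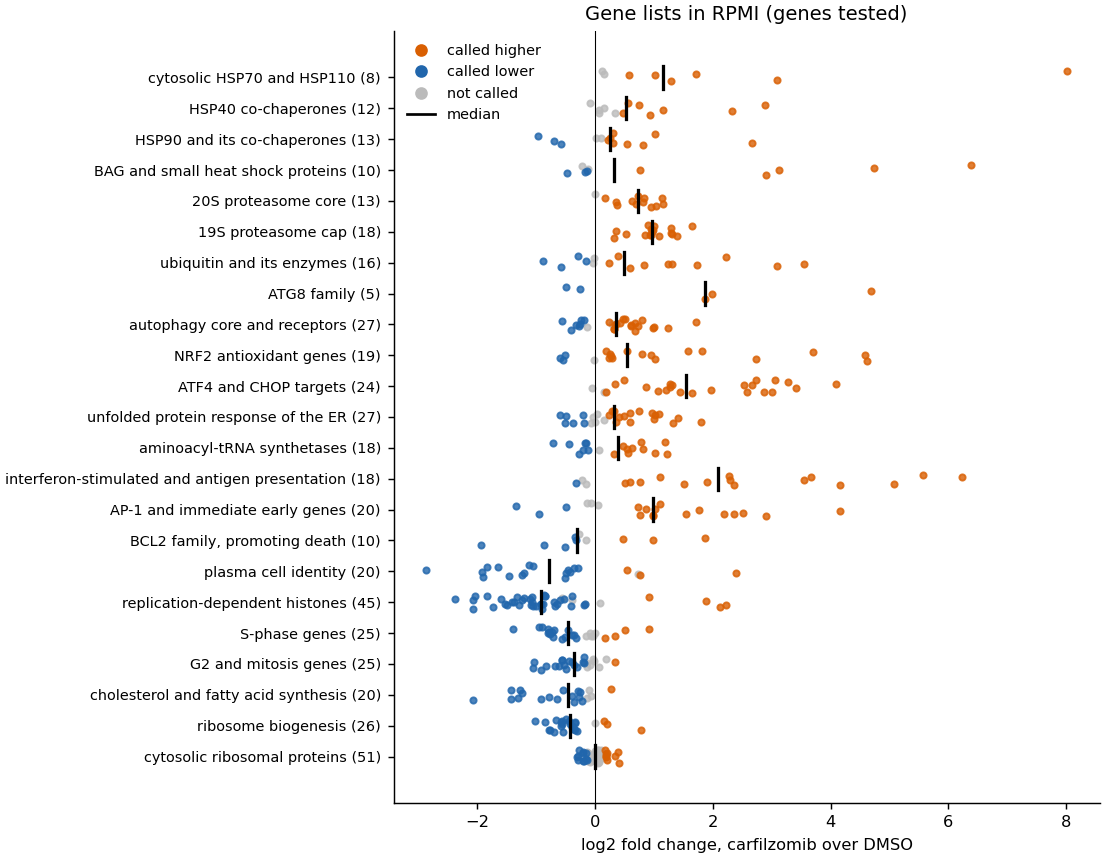
Log2 fold change of carfilzomib against DMSO in RPMI for each tested member of the gene lists, 1 row per list; points are genes, coloured by call at an adjusted p under 0.05, and a short bar marks the median of each list. Among the lists drawn, the medians run from -0.92 for replication-dependent histones to 2.08 for interferon-stimulated genes, beside 0.0068 over all genes tested.

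Interferon-stimulated genes, which cells switch on against viruses, had the highest median of all lists with over 5 genes tested, 2.08, with 15 of 18 rising (12 by at least 2-fold) and CD74 alone falling (-0.32). IFIT2, which binds viral RNA (chr10:89283694-89309276, GRCh38), had 1.63, 1.45 and 0.977 CPM with DMSO and 107, 84.3 and 99.2 CPM with carfilzomib. The groups were far apart, with a log2 fold change of 6.23 (SE 0.14, 75.2-fold, adjusted p = 2.2e-12). IFIT3 had 10.5, 8.56 and 8.004 CPM and 179, 137 and 155 CPM, a log2 fold change of 4.15 (SE 0.11), and MX1, a GTPase against RNA viruses, had 34.7, 14.05 and 15.1 CPM and 275, 207 and 225 CPM, a log2 fold change of 3.55 (SE 0.24). Neither gene's groups overlapped, and the first DMSO library was the highest of the DMSO libraries in both.

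The rest of the list ranged widely. IFI44L was counted 21, 7 and 1 times with DMSO and 357, 323 and 428 times with carfilzomib, with a log2 fold change of 5.56 (SE 0.49) that became 7.11 without DMSO replicate 1 and 4.78 without DMSO replicate 3. STAT2, a transcription factor below the interferon receptors, rose by 1.11 and IRF1 by 0.59. CIITA (-0.22) and NLRC5 (-0.16), regulators of antigen presentation, were not called, though NLRC5 was called lower without DMSO replicate 1 (-0.20) or carfilzomib replicate 1 (-0.19). IRF7, IRF9, B2M and 4 other members have several rows. The interferon genes themselves were looked up after these values had been seen. IFNB1 was counted 0, 0 and 1 times with DMSO and 36, 5 and 11 times with carfilzomib, below the filter on low counts, with a pooled ratio of 69.1 (exact 95% interval 11.9 to 2781, counting error only). IFNA1 had no count in any DMSO library and 0, 2 and 0 counts with carfilzomib, and IFNL1 had 4 counts over the DMSO libraries and 5 over the carfilzomib libraries. IFNG, the only one of these 4 that passed the filter, had 52, 82 and 97 counts with DMSO and 31, 36 and 51 with carfilzomib, a log2 fold change of -0.58 (SE 0.23, adjusted p = 0.0426 by edgeR's test). That call was lost without any 1 of the DMSO libraries or of carfilzomib replicates 1 and 2, with log2 fold changes of -0.65 to -0.51.

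NF-kB targets, many of them cytokines and survival genes, moved both ways, 8 of 18 rising and 6 falling. CXCL8, the chemokine interleukin-8, had 4.88, 2.23 and 1.76 CPM with DMSO and 105, 99.5 and 127 CPM with carfilzomib, a rise of 5.39 (SE 0.20) without overlap. NFKB2 (1.07) and RELB (1.04) of the noncanonical branch rose, whereas NFKB1 (-0.38), TNFAIP3 (-0.53) and BIRC3 (-1.25) fell. The call for TNFAIP3 was lost without DMSO replicate 1 (-0.34) or carfilzomib replicate 2 (-0.46). Immediate early genes, the first to respond to signals through AP-1, rose in 14 of 20 and fell in 3, with a median of 0.98. JUN had 78.9, 67.8 and 52.7 CPM and 363, 358 and 406 CPM, a log2 fold change of 2.51 (SE 0.11), and FOSL1 rose by 2.36 while FOS fell (-0.95).

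Genes of cell death did not move as a block. PMAIP1 (NOXA), a BH3-only protein that neutralises MCL1, had 49.6, 40.5 and 39.2 CPM with DMSO and 141, 153 and 174 CPM with carfilzomib. Its groups were apart, with a log2 fold change of 1.87 (SE 0.09, adjusted p = 1.02e-09), and BBC3 (PUMA) rose by 0.99. The BH3-only genes BCL2L11 (BIM, -0.87, SE 0.07) and BMF (-1.95, SE 0.14) fell. In the list of death-promoting BCL2 genes 3 of 10 rose and 5 fell. Among the opposing genes BCL2 (-0.89) and BCL2L1 (-0.93) fell. MCL1, on which myeloma cells often depend, had 347, 305 and 279 CPM and 336, 341 and 362 CPM, groups that overlapped, with a log2 fold change of 0.16 (SE 0.07, adjusted p = 0.0645) that was called without DMSO replicate 1, at 0.24. Of 15 death receptor and caspase genes 11 rose and 1 fell, and the largest rise was that of the TRAIL receptor TNFRSF10B (1.28, SE 0.09). The call for CASP6 (0.22), which rose, was lost without any 1 library (0.19 to 0.24).

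Most genes of S phase and mitosis fell. MCM2, of the replicative helicase, had 381, 398 and 392 CPM with DMSO and 239, 248 and 232 CPM with carfilzomib, a log2 fold change of -0.70 (SE 0.05) with no overlap. Of 25 S-phase genes 16 fell and 4 rose (median -0.46), and of 25 genes of G2 and mitosis 17 fell and 1, CDC25C, rose (median -0.36). MKI67, the proliferation marker, changed by -0.36 (SE 0.05), and CCNB1 had 259, 313 and 325 CPM and 246, 240.1 and 176 CPM, close together but not overlapping (-0.44, SE 0.11). RRM1 (0.91) and RRM2 (0.51), the ribonucleotide reductase subunits, were among the S-phase genes that rose. CCND2, a D-type cyclin, had 1200.0, 1075 and 1176 CPM and 304, 321 and 314 CPM, and fell by 1.88 on the log2 scale (SE 0.06). CCND1 fell by 2.17 (SE 0.07) and the CDK inhibitor CDKN1A (p21) rose by 1.24 (SE 0.07), though of 17 p53 targets 5 rose and 8 fell.

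Replication-dependent histone genes, expressed in S phase, fell in 37 of 45 and rose in 4, with 21 falls of at least 2-fold and a median of -0.92. H2AC4 had 96.4, 91.5 and 91.6 CPM with DMSO and 15.8, 16.9 and 21.01 CPM with carfilzomib, all 3 lower, a log2 fold change of -2.37 (SE 0.09, adjusted p = 8.32e-11). H2BC9 (-2.07) and H4C4 (-2.07) changed nearly as much. The exceptions were H3C11 (2.22), H2AC7 (2.13), H4C12 (1.88) and H4C11 (0.92). Most replication-dependent histone mRNAs lack a poly(A) tail, and the libraries were made from total RNA per the labels. Of 6 replication-independent histone genes 4 fell and 1 rose, with a median of -0.43. The rise was that of H2AX, the variant marked at DNA breaks (0.70), and without DMSO replicate 2 or carfilzomib replicate 3 the number that rose was 2.

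Genes that define the plasma cell fell in 16 of 20 and rose in 3, with 10 falls and 1 rise of at least 2-fold and a median of -0.79. JCHAIN, which joins antibody units into polymers (chr4:70655541-70681817, GRCh38), had 4331, 3722 and 3506 CPM with DMSO and 622, 519 and 430.1 CPM with carfilzomib. All 3 carfilzomib libraries lay far below the DMSO libraries, with a log2 fold change of -2.88 (SE 0.12, 7.36-fold lower, adjusted p = 1.74e-10). In bulk RNA fewer cells with a transcript and less of it per cell cannot be told apart. SDC1 (CD138), the surface marker of plasma cells, had 386, 363 and 375 CPM and 105, 103 and 87.8 CPM, a log2 fold change of -1.93 (SE 0.07). IKZF3, a target of the drugs that recruit cereblon, changed by -1.90 (SE 0.08) and TENT5C, which extends the poly(A) tails of secretory mRNAs, by -1.84 (SE 0.07).

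The master factors of the lineage fell as well. IRF4 had 529, 468 and 469 CPM with DMSO and 359.9, 366 and 312 CPM with carfilzomib (-0.50, SE 0.07), and PRDM1 (BLIMP1) changed by -0.36 (SE 0.07), both without overlap. TNFRSF17 (BCMA), a target of antibody and cell therapies, fell by 1.22 (SE 0.11) and CD38 by 1.47. POU2F2 (2.38), SLAMF7 (0.76) and POU2AF1 (0.54) rose. The summed level of the 23 measured markers was 2445 to 2878 CPM with carfilzomib, against 7582 to 8960 CPM with DMSO. JCHAIN, with the values above, was the largest part of that sum in each library and weighs most in its fall. MZB1, the next largest with DMSO, went from 1057, 1016 and 972 CPM to 342, 348 and 280 CPM. B cell markers summed to 12 to 13.4 CPM with carfilzomib and T and NK cell markers to 1.41 to 1.76 CPM, both below their DMSO range, and the part of these markers in the result was not tested.

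MYC, often rearranged in myeloma, had 1056, 1002 and 1039.8 CPM with DMSO and 527, 518 and 463 CPM with carfilzomib. All 3 carfilzomib libraries were lower, with a log2 fold change of -1.04 (SE 0.06, adjusted p = 3.49e-09), while its antagonists MXD1 (1.78) and MXD4 (0.75) rose. Ribosome biogenesis fell in 22 of 26 genes and rose in 3, with a median of -0.44, among them the nucleolar proteins NPM1 (-0.79, SE 0.05) and NCL (-0.85). Of 51 ribosomal proteins 9 rose and 11 fell, none by 2-fold, with a median of -0.0092. The number that rose was 3 without DMSO replicate 3, 5 without carfilzomib replicate 2 and 17 without carfilzomib replicate 3. Cholesterol and fatty acid synthesis fell in 16 of 20 and rose in 1, HMGCS1 (0.27). Among the larger changes were those of ELOVL6 (-2.07), SQLE (-1.43) and FASN (-1.31), and SREBF1, the factor that drives fatty acid genes, fell by 0.92.

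The single genes that changed most lay largely outside the lists. By rule, the 12 largest rises and 12 largest falls are taken among genes with 1 row per identifier, on average at least 50 counts in whichever group is higher, and groups that do not overlap. MAP1B, a microtubule-associated protein of neurons (chr5:72107234-72209570, GRCh38), had 3.37, 2.94 and 2.96 CPM with DMSO and 153, 145 and 164 CPM with carfilzomib. Its groups were far apart, with a log2 fold change of 5.66 (SE 0.08, 50.5-fold, adjusted p = 4.22e-14). STYK1, a receptor-like kinase, had no count with DMSO and 41, 66 and 79 counts with carfilzomib, at least 81.1-fold higher against a floor of 3 counts over the group. NRXN3 (neurexin) was counted once with DMSO and 252 times with carfilzomib, a ratio of 335 (59.6 to 13277, 95% counting interval). CYP4F3, which inactivates leukotriene B4, had 2 and 371 counts, a ratio of 246 (67.7 to 2043), and BCAN, a proteoglycan of brain, 3 and 169, a ratio of 74.8 (25.2 to 367).

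Also among the 12 largest rises were HPD, of tyrosine breakdown, with 3, 6 and 1 counts with DMSO and 241, 220 and 260 with carfilzomib, and NRIP3 with 4, 4 and 0 and 167, 257 and 290 counts. RBM11, a splicing factor, had 6, 5 and 1 and 178, 171 and 216 counts. Leaving out 1 of their DMSO libraries moved each fold by over 1.5 times, over log2 values of 5.84 to 7.17 for HPD, 5.95 to 7.40 for NRIP3 and 5.18 to 6.53 for RBM11. ATG9B, a lipid scramblase of autophagy, was better counted, with 1.05, 0.814 and 0.461 CPM and 41.5, 34.2 and 38.8 CPM and a log2 fold change of 5.73 (SE 0.18). HSPA6, CRYAB and IFIT2, described above, complete the 12.

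Among the falls, LINC02642, a long noncoding RNA (chr10:7445558-7471942, GRCh38), had 116, 122 and 126 CPM with DMSO and 4.02, 3.19 and 2.89 CPM with carfilzomib. The log2 fold change was -5.19 (SE 0.09, 36.4-fold lower, adjusted p = 2.85e-13). STS, steroid sulfatase (chrX:7219456-7354810, GRCh38), had 277, 245 and 210.3 CPM and 8.43, 9.74 and 6.95 CPM, a log2 fold change of -4.87 (SE 0.12, 29.1-fold lower). In both genes the 3 carfilzomib libraries lay far below the 3 DMSO libraries. The next largest falls were in genes of lower count, namely SFTPA1, MAP2K6, TMPRSS2, RNASE6, CALML3, KRT83, FRMD1, CSPG5, CACNG4 and NEURL3. Their DMSO means ran from 2.22 to 16.1 CPM and their carfilzomib means were under 1 CPM. MAP2K6 activates the stress kinase p38 and CACNG4 (log2 fold change -4.19, SE 0.20) is a subunit of AMPA receptors.

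MALAT1, a nuclear noncoding RNA of splicing speckles, had 89.2, 71.8 and 65.1 CPM with DMSO and 663, 581 and 841 CPM with carfilzomib. NEAT1, the scaffold of paraspeckles, had 413, 487 and 494 CPM and 2487, 2172 and 2868 CPM. Both rose without overlap, by 3.21 (SE 0.13) and 2.43 (SE 0.10), while the paraspeckle proteins SFPQ (-0.44), PSPC1 (-0.25) and HNRNPK (-0.81) fell and NONO (-0.05) was not called. Of the RNAs with the most counts, RN7SK, which restrains transcription elongation, rose by 0.75 (SE 0.06) and the translation factor EEF1A1 by 0.44.

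By gene type (GENCODE 29, which matched 14550 of the 14995 genes), the median log2 fold change was -0.028 for 12169 protein-coding genes, 0.23 for 992 long noncoding RNAs, 0.19 for 1143 pseudogenes and 0.38 for 240 small RNAs. Of the long noncoding RNAs 31.3% rose and 15.7% fell. Their median level with DMSO was 1.59 CPM, against 29.98 CPM for protein-coding genes. Of 188 small nucleolar RNAs, the largest class of small RNAs, 28.2% rose and 7.45% fell, against 31.3% and 32.2% of all genes tested, and of 20 small nuclear RNAs 16 rose and none fell. Protein-coding genes were cut into 4 bins of near equal number by genomic span, and the shortest, under 13.5 kb, had a median of -0.11 and the longest, from 80.4 kb, a median of 0.028.

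H-929, the other myeloma line of the series, was given the same treatments with DMSO libraries of its own. The change in RPMI minus the change in H-929 was tested for 17930 genes by edgeR's quasi-likelihood F test of the interaction over 12 libraries. It was positive and called in 3299 genes (18.4%) and negative and called in 3615 (20.2%), with a median of -0.073 over all genes. That balance depended on the processing. Of the called genes 51.1% were positive with the size factors of DESeq2, which turned it. Against a null fold change of 1.5 the share was 37.4%, further to the negative side. Below, a gene is higher or lower in RPMI where this difference is positive or negative and called. Of the ATF4 and CHOP targets 20 of 24 were higher in RPMI and none was lower. For TRIB3 the log2 fold change was 2.55 in RPMI and 0.39 in H-929, a difference of 2.15 (SE 0.20, adjusted p = 1.54e-07). For ATF4 itself it was 1.26 and 0.04, a difference of 1.22 (SE 0.09, adjusted p = 1.03e-08). DDIT3 rose in both, by 3.23 and 3.22, with a difference of 0.02 (SE 0.14, adjusted p = 0.951).

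The unfolded protein response differed alike, with 20 of 27 genes higher in RPMI and 1 lower. HSPA5 changed by 1.76 in RPMI and by -0.67 in H-929 (adjusted p = 6.61e-07 in H-929), a difference of 2.42 (SE 0.11, adjusted p = 3.86e-11). Of 18 aminoacyl-tRNA synthetases 14 were higher in RPMI and none lower, WARS1 by 2.39 (SE 0.10). Proteasome genes were higher in RPMI in 9 of 13 for the core and 12 of 18 for the cap, with 0 and 1 lower. PSMD12, of the cap, had log2 fold changes of 1.27 and 0.04, a difference of 1.23 (SE 0.13, adjusted p = 1.18e-06). Interferon-stimulated genes were higher in RPMI in 13 of 18 and lower in 2. IFI44L changed by 5.43 in RPMI and -2.07 in H-929, a difference of 7.5 (SE 0.94) that ran from 6.8 without RPMI DMSO replicate 3 to 9.13 without RPMI DMSO replicate 1.

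**Figure D4:**
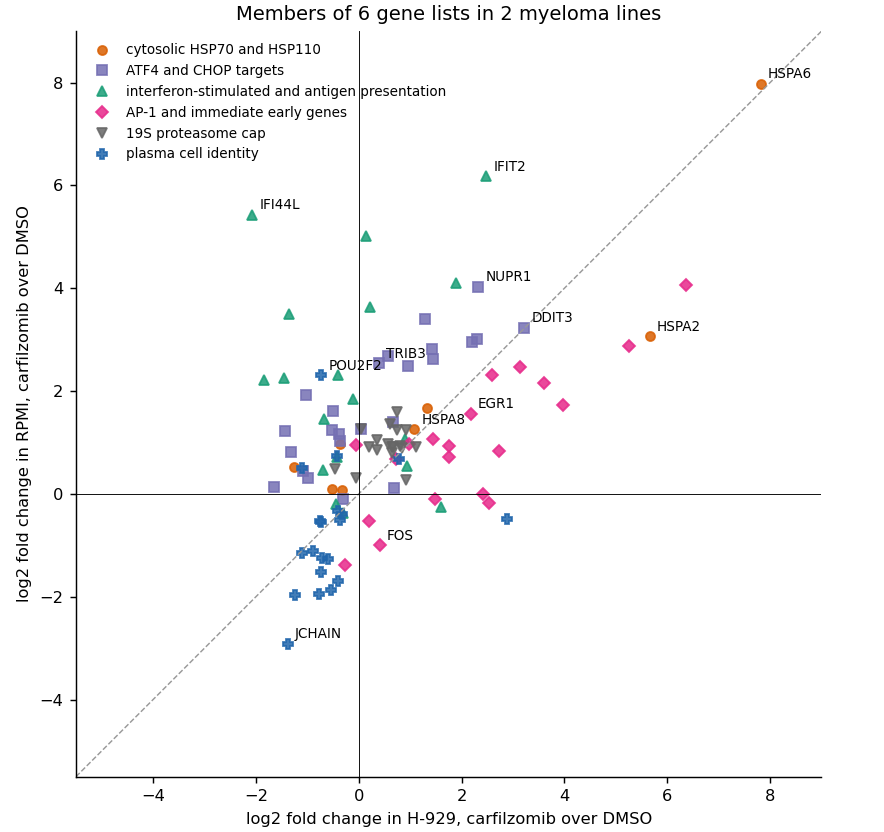
Log2 fold change of carfilzomib against DMSO in H-929 (across) and in RPMI (upward), from 1 fit of 12 libraries, for the tested members of 6 gene lists; each point is 1 gene, colours and shapes mark the list, and the dashed diagonal is equal change. TRIB3 and IFI44L lie above the diagonal, HSPA2 lies below it and DDIT3 lies on it.

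Heat shock genes did not all differ the same way. DNAJB1 rose by 2.84 in RPMI and 4.74 in H-929, a difference of -1.90 (SE 0.14, adjusted p = 1.01e-08), and the sum of HSPA1A and HSPA1B by 7.71 and 9.59, a difference of -1.88 (SE 0.48, adjusted p = 0.00491). HSPB1 went the other way, with 3.08 and 1.35, a difference of 1.72 (SE 0.14), as did HSP90AA1 with a difference of 1.35 (SE 0.12). HSPA6 had a difference of 0.16 (SE 0.46, adjusted p = 0.824), which was not called and turned negative without RPMI carfilzomib replicate 3 (-0.12) or H-929 DMSO replicate 1 (-0.17). Of the 8 single-row HSP70 and HSP110 genes 5 were called higher and 1, HSPA2, lower in RPMI (-2.59, SE 0.27).

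Immediate early genes stood on the other side, 14 of 20 being lower in RPMI and KLF6 alone higher. KLF4 rose in both lines, with log2 fold changes of 2.88 in RPMI and 5.27 in H-929 (difference -2.39, SE 0.36). BBC3 (PUMA) also rose less in RPMI, by 0.95 against 2.71 (difference -1.77, SE 0.21). Plasma cell genes were lower in RPMI in 9 of 20 and higher in 3. JCHAIN fell in both lines, with log2 fold changes of -2.92 and -1.38 and a difference of -1.54 (SE 0.15, adjusted p = 2.93e-07). MYC changed by -1.08 in RPMI and -0.16 in H-929, a difference of -0.92 (SE 0.10, adjusted p = 1.37e-06). Among the largest differences MAP1B changed by 5.62 and -0.13 (difference 5.74, SE 0.14) and TTLL7, a tubulin polyglutamylase, by 5.24 and -0.19.

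Against the mean change of all 7 other lines, tested over 48 libraries with 22309 genes, RPMI was higher in 3600 genes (16.1%) and lower in 4384 (19.7%), with a median of -0.0095. With library totals in place of TMM factors the balance was the other way, 4191 higher and 3819 lower. This contrast uses the same RPMI libraries as the comparisons above, and its error is the spread between replicates and not between lines. ATF4 and CHOP targets were higher in RPMI in 24 of 24 genes. ATF4 had a difference of 1.45 (SE 0.06, adjusted p = 3.66e-24), with changes in the other lines from -0.58 (DLD-1) to 0.20 (CAPAN-2). SLC7A11 differed by 2.66 (SE 0.14), the other lines running from -0.55 to 0.44. Interferon-stimulated genes were higher in 11 of 18 and lower in none, with IFIT2 at 5.35 (SE 0.16) over a range of -0.08 to 2.33 in the others.

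The HSP70 and HSP110 list was higher in RPMI in 6 of 8 genes and lower in none. HSPA8 differed by 1.13 (SE 0.09), between changes of -1.30 in RKO and 1.49 in H-1299. GABARAPL1 differed by 3.27 (SE 0.11). Of the proteasome cap 12 of 18 genes were higher in RPMI than the mean of the other lines and 2 lower, and of the core 6 of 13 were higher and 3 lower. PSMC6, an ATPase of the cap, had its largest change in RPMI, whereas CAPAN-2 had larger changes than RPMI in the core genes PSMB5 (1.27) and PSMB7 (1.60). No single line other than H-929 was tested against RPMI. Ribosome biogenesis was lower in RPMI in 21 of 26 and higher in 1, and MYC differed by -1.23 (SE 0.07), the other lines running from -0.48 to 0.75. STS, whose fall was among the largest, differed by -4.08 (SE 0.14, adjusted p = 3.43e-27).

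**Figure D5:**
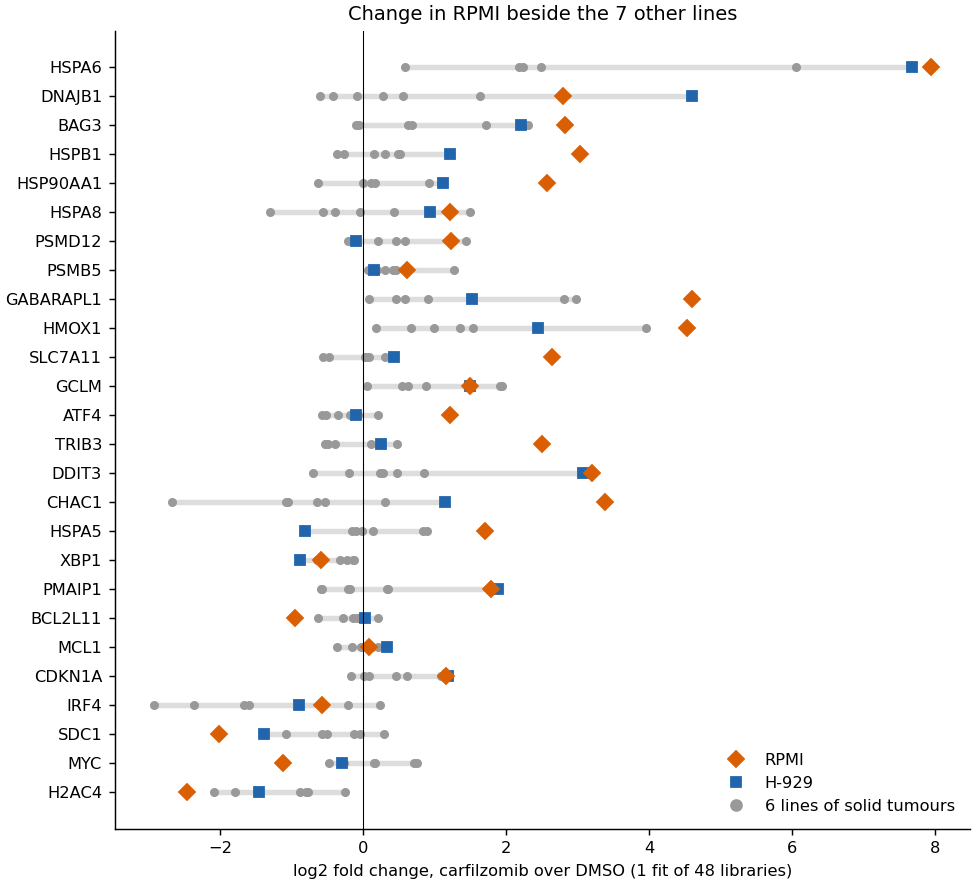
Log2 fold change of carfilzomib against DMSO for named genes in each of the 8 lines, from 1 fit of 48 libraries; diamonds are RPMI, squares H-929, circles the 6 lines of solid tumours, and a grey bar spans the 7 lines other than RPMI. RPMI has the highest value for ATF4, SLC7A11 and GABARAPL1 and the lowest for MYC, while DNAJB1 is highest in H-929.

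Multidrug transporters export drugs from cells, and ABCB1 is known to carry carfilzomib. ABCB1 was counted 2, 0 and 3 times with DMSO and 26, 23 and 33 times with carfilzomib. Its groups did not overlap, and the log2 fold change was 4.33 (SE 0.61, adjusted p = 2.85e-05), or 3.74 without DMSO replicate 2, at levels of about 1 CPM. ABCG2 had 111, 112 and 109 CPM and 28.2, 28.2 and 26.3 CPM, all lower with carfilzomib, a log2 fold change of -2.01 (SE 0.06). ABCC2 (0.95) and ABCC5 (0.86) rose and ABCC4 (-0.48) fell. The call for ABCC2 was lost without DMSO replicate 2 (0.91), DMSO replicate 3 (0.94) or carfilzomib replicate 3 (0.63).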

How the data were processed

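Total RNA of RPMI cells was sequenced from 3 cultures per treatment, with stranded total RNA libraries per the labels' protocols. The authors deposited 1 matrix of raw read counts per gene for 48 libraries. The submitters' processing notes name bcl2fastq 2.19, FastQC, Trimmomatic, HISAT2, DESeq2 and the hg38 build without roles. The counting program, annotation and strand setting are not given in the sources used here, so antisense and overlapping genes may share reads.

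From these counts, edgeR 4.0.16 (R 4.3.3, limma 3.58.1) was run with TMM scaling, filterByExpr and the quasi-likelihood F test, with Benjamini-Hochberg adjustment over all genes tested and a threshold of 0.05. The SE beside a log2 fold change or difference is its absolute value divided by the square root of the F statistic. It is an approximation and not a standard error estimated by the fit, above all for genes with few counts in a group. Of 14995 genes tested, 497 have an identifier that more rows carry and are treated as uncertain, except that the 8 rows of HSPA1A and HSPA1B were summed. The test recovered 83% of genes changed 2-fold and 97% of those changed 4-fold in counts simulated for RPMI over 14343 genes, and 60% and 84% for the comparison with H-929 over 16513 genes. Of the simulated calls 13 (6.74%) were false for RPMI and 4 (2.70%) for H-929. Only 100 genes were changed by each fold, up and down alike, and none of low count. Far more genes were called in the data, so recovery and scaling under so broad a change were not tested. Replicates of 1 treatment differed by more than sampling noise (chi-square per degree of freedom 6.08 to 9.06).

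Named genes were a set of stress and lineage genes, up to 4 called members per list with the largest change, the 12 largest rises and falls, the 6 largest differences in each direction against other lines, and the most abundant genes, with 50 counts or more on average. Other list members are given with their values, and some genes that the rule or the lists hold are not reported here. The genes, lists and rule were chosen with earlier results of these data known. Alternatives were other scaling factors, filters, tests, a replicate block, summed or omitted rows, a null fold change of 1.5 and leaving out each library. Intervals of ratios are exact and cover counting error only.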

Additional observations from a re-analysis of the deposited data

Results flagged for a closer look

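The response to carfilzomib differed between RPMI and other lines in many genes by a test of the difference itself (edgeR's quasi-likelihood F test of the interaction, adjusted over all genes tested). Against H-929 the change was more positive in RPMI in 3299 genes and more negative in 3615, a balance that turned with the size factors of DESeq2 (51.1% more positive). Against the mean of the 7 other lines it was more positive in 3600 genes and more negative in 4384, or in 4191 and 3819 with library totals.

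Of the heat shock genes, the difference from H-929 on the log2 scale was -1.88 for the sum of HSPA1A and HSPA1B, -1.90 for DNAJB1, 0.51 for BAG3, 1.72 for HSPB1, 1.35 for HSP90AA1 and 0.34 for HSPH1. Of the genes of protein disposal it was 0.36 for PSMB5, 1.23 for PSMD12, 0.30 for UBB, 2.98 for GABARAPL1 and 1.22 for MAP1LC3B. The calls for BAG3, HSPH1, PSMB5, UBB and MCM2 were small, and leaving out a single library could end them. Their log2 differences then ran from 0.35 to 0.47 for BAG3 (without RPMI DMSO replicate 2, RPMI carfilzomib replicate 3 or H-929 carfilzomib replicate 1). They ran from 0.25 to 0.37 for HSPH1 (9 of 12 libraries), 0.26 to 0.37 for PSMB5 (6 libraries), 0.25 to 0.29 for UBB (3 libraries) and 0.23 to 0.34 for MCM2 (9 libraries).

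Of the oxidative and amino acid stress genes, the log2 difference from H-929 was 1.99 for HMOX1, 2.11 for SLC7A11, 1.22 for ATF4, 0.71 for ATF3, 2.15 for TRIB3, 2.11 for CHAC1 and 1.53 for ASNS. It was 2.42 for HSPA5 and 1.18 for HERPUD1 of the endoplasmic reticulum. Of the BCL2 family, the log2 difference was -1.07 for the death-promoting BCL2L11 and -0.35 for MCL1, which opposes death. MYC had -0.92, and the plasma cell genes SDC1 and TNFRSF17 had -0.73 and -0.55. Cell cycle genes had 0.58 (MKI67), 0.31 (MCM2) and -1.10 (H2AC4). The transporter gene ABCB1 had 4.60.

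The largest positive log2 differences from H-929 were 7.5 for IFI44L, 5.78 for RSAD2, 5.74 for MAP1B, 5.42 for TTLL7 and 4.87 for IFI44. That of IFI44L became 9.13 and that of RSAD2 6.43 without RPMI DMSO replicate 1. For genes with 3 or fewer counts in a group the adjusted p of the difference is given in place of a fold. It was 1.28e-08 for BCAN, higher in RPMI, and, lower in RPMI, 5.25e-09 for LINC01754, 4.57e-06 for NEURL3, 5.15e-05 for HRH1, 0.000728 for FRMD1, 2.1e-05 for KRT83 and 3.07e-05 for MS4A4A. The call for FRMD1 was lost without H-929 carfilzomib replicate 3 (adjusted p = 0.99993).

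Against the mean of the 7 other lines the log2 difference was 5.88 for HPD, 5.35 for IFIT2 and 5.09 for MAP1B. That of HPD was 6.54 without RPMI DMSO replicate 2 and 5.26 without RPMI DMSO replicate 3. By the same test the adjusted p was 2.47e-06 for STYK1, 8.82e-15 for BCAN and 6.02e-12 for NRIP3, all higher in RPMI. Lower in RPMI, it was 1.41e-07 for LINC01754, 9.83e-07 for NEURL3, 5.59e-16 for HRH1, 2.04e-08 for MAP2K6, 7.49e-06 for LGI2 and 7.57e-18 for BEST3.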

How the results depend on the processing

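Of 3374 values recomputed for named genes in RPMI, 3330 kept their direction and side of the threshold, 39 lost the call and 5 gained it. For differences from H-929 this held in 1016 of 1085, and for those from the 7 other lines in 238 of 238. Of the numbers of list members called, 93 of 1532 recomputed values moved by over 1.5 times, and of the list medians 121 of 766 moved by more than the spread between replicates. These changes were uneven over the settings. The null fold change of 1.5 gave 32 of the lost calls of named genes in RPMI. With it 52 list counts moved and 44 did not. In the fit of 48 libraries 33 list medians moved and 15 did not, and without a filter 23 moved and 25 did not. With 1 library left out, genes called in RPMI numbered 8825 to 9208 (4335 to 4538 higher, 1584 to 1689 of them by at least 2-fold, and 4490 to 4711 lower, 1339 to 1403 by at least 2-fold). Those differing from H-929 numbered 6059 to 6901 (2958 to 3394 higher, 3055 to 3555 lower), those differing from the 7 lines 7239 to 7551 (3198 to 3452 higher, 3908 to 4251 lower), and the summed HSPA1A and HSPA1B rows changed by 7.54 to 8.11. Against a null fold change of 1.5, 3669 genes were called in RPMI (1874 higher, 1795 lower), 2575 against H-929 (964 and 1611) and 2158 against the 7 lines (978 and 1180). With a mean of at least 50 counts, 980 genes rose by at least 2-fold. The Wald test of DESeq2 called 9125 genes in RPMI, including 8739 of the 9514. Without a filter, 61.7% of genes differing from H-929 were higher in RPMI, against 47.7% with it. The share was 51.1% with the size factors of DESeq2, 50.3% with its Wald test and 53.2% in the fit of 48 libraries. It was 48.8% with library totals, 47.2% with a mean of at least 50 counts and 37.4% against a null fold change of 1.5.

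The replicate numbers of the labels did not pair the samples (correlations of deviations 0.021, -0.013 and -0.019). With the replicate block 9526 genes were called in RPMI, 6734 against H-929 and 7766 against the 7 lines. Several median log2 fold changes of gene classes moved by more than the spread between replicates. With library totals they were -0.015 for protein-coding genes, -0.015, -2.27e-05 and 0.041 for the second to last bin by span and -0.014 for genes of several exons. With a mean of at least 50 counts they were -0.018 for protein-coding genes, 0.60 for small RNAs (from 0.38), -0.010 and 0.0058 for the second and the third bin (the latter from -0.012), -0.015 for several exons and -0.18 for single exons. Differences from H-929 that were not called and changed sign were HSPA6 (-0.17 to 0.40 with 1 library left out), GCLM (0.10 without a filter, 0.000804 in the fit of 48 libraries, -0.17 to 0.010 with 1 left out), DDIT3 (-0.046 with at least 50 counts, -0.084 to 0.11 with 1 left out), CDKN1A (0.069 without a filter) and PRDM1 (0.12 without a filter, 0.021 in the fit of 48, -0.13 to 0.012 with 1 left out). The cause was not tested.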

Other observations

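Genes of glycolysis and the response to low oxygen divided in RPMI, with 10 of 26 rising and 14 falling at an adjusted p under 0.05 by edgeR, 5 and 4 of them by at least 2-fold. HK1, a hexokinase, rose by 2.68 on the log2 scale and SLC2A3, a glucose transporter, by 1.58. HK2 (-1.13), ALDOC (-1.5) and PGAM1 (-1.18) fell. Of 6 metallothionein and zinc genes 2 rose and 2 fell, numbers that turn on single libraries. The rises numbered 1 without DMSO replicate 1, DMSO replicate 2 or carfilzomib replicate 2 and 0 without carfilzomib replicate 3, and the falls numbered 1 without DMSO replicate 3. MT1X rose by 0.47, a call lost without carfilzomib replicate 3, at 0.26, and MTF1, the factor that drives metallothionein genes, by 0.25, a call lost without each library named for the rises (0.16 to 0.24). MT1F fell by 1.22, a call lost without DMSO replicates 2 or 3 or carfilzomib replicates 1 or 3 (-1.24 to -1.02).

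Of genes with no count in any library of 1 treatment and at least 10 counts in each library of the other, 12 appeared with carfilzomib and 2 were counted only with DMSO. Of the 10 with a single row, SPRR2D, a protein of the cornified envelope, was at least 56.9-fold higher, FGF12 at least 44.6-fold and PNMA8B at least 35.5-fold, against a floor of 3 counts over the DMSO group. PLA2G2D, a secreted phospholipase, had 14, 15 and 18 counts with DMSO and 0 in each carfilzomib library.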
